A study of Mus musculus with 9 samples.

Results

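Ribosome biogenesis begins in the nucleolus, where RNA polymerase I transcribes the ribosomal DNA into a long precursor RNA. Small nucleolar ribonucleoproteins (snoRNPs) modify that precursor, and separate sets of assembly factors cut and fold it into the small (40S) and large (60S) ribosomal subunits. B cells that are stimulated to divide enlarge their nucleoli, and the MYC transcription factor is a known activator of many genes of this pathway. The genes described here are 40 that act in this pathway, chosen by name with earlier results of these data known. They were matched to the Ensembl gene IDs of the count files through their symbols. All 40 were found among the 48795 gene rows, and all 40 passed the filter on low counts. They comprise 10 snoRNP core and nucleolar chaperone genes, 15 genes of small subunit maturation, 10 of large subunit maturation and 5 of RNA polymerase I transcription.

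The cells were follicular B cells, taken from mouse spleen by selection for CD23, from C57BL/6 animals homozygous for a Yy1 allele flanked by loxP sites (yy1 f/f). Both RNA groups carried that allele. The tatcre group (3 libraries) received TAT-CRE, a cell-permeable Cre recombinase that deletes the floxed gene, and the mock group (3 libraries) received a mock treatment. Both groups were grown with LPS plus IL-4, for 72 hours in 10% serum according to the series text and for 48 hours in 20% serum according to the sample text. The sample text names TAT-CRE for every sample, so the groups follow the titles. The series text describes 3 mice whose cells were divided between the treatments, but no label says which library came from which mouse, so a p-value here speaks only of the spread among the 6 libraries. The comparison addressed the role of YY1 in activated B cells. Exposure to the recombinase and loss of Yy1 cannot be told apart, since every tatcre library had both.

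The libraries held 22729187 to 28230727 gene counts. Yy1 had 2542 to 3018 counts in the mock and 24 to 50 in the tatcre libraries. The B cell markers Cd79a, Cd79b, Ms4a1, Fcer2a, Cr2 and Pax5 were present in all libraries, with a summed level of 3692 to 4057 CPM in mock libraries and 3024 to 3185 CPM in tatcre cells, and 3 of the 6 were called lower. Levels are CPM, counts scaled to the size of the library with TMM factors. Of 7 T cell markers only Lck (8.61 to 20.3 CPM) exceeded 1 CPM in any library, and of 6 macrophage markers only Cd68 (10.4 to 26.9 CPM) and Csf1r (at most 1.29 CPM) did. Both Lck-dominated and Cd68-dominated sums were lower in tatcre than in mock cells, at 9.73 to 13.3 against 14.6 to 21.1 CPM and 12.6 to 15.8 against 22.5 to 28.1 CPM. NK, neutrophil and erythroid marker sums stayed at or under 0.808 CPM in every library, and Nkg7, C1qa, S100a8, S100a9, Ly6g and Hbb-bs had no count in any. The plasma cell sum was 811 to 850 CPM in mock libraries and 632 to 694 CPM in tatcre cells, and the stromal sum, mostly Pecam1, was 38.7 to 49.7 and 36.4 to 41.3 CPM. Their part in the results below was not tested. In bulk RNA, fewer cells of a type and less RNA per cell cannot be told apart, and CPM show a gene's share of the library rather than its amount per cell.

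The 40 chosen ribosome biogenesis genes were more often lower than higher in tatcre cells, by modest amounts. Of the 40 genes 18 were called lower, 2 were called higher and 20 were not called (edgeR quasi-likelihood test over 15546 genes, Benjamini-Hochberg adjusted p under 0.05). Across all tested genes 16.3% were called lower and 10.8% higher, against 45% and 5% of these 40. Among the 9049 tested genes in the same range of mean level (log2 CPM of 3 to 14), 22.5% were called lower and 12.8% higher. The further lists of small subunit, large subunit, RNA polymerase I and snoRNP assembly genes, described below, lay near that background in their shares called lower. Those shares were 24.3%, 20.5%, 18.8% and 20%, and no gene of these lists was called higher. The median log2 fold changes of these lists were also negative, at -0.096, -0.2, -0.197 and -0.185. An excess of lower calls was thus seen in the 40 and not in these lists, and the 40 were chosen with earlier results known. The median log2 fold change of the 40 was -0.34, or 79% of the mock level. That of all tested genes was 0.02, and that of genes in the same range of level was -0.05. The extremes were Bop1, at 56.3% of its mock level, and Utp20, at 222%. The groups did not overlap, with every tatcre library under every mock library, for 17 of the 40, against 23.3% of all tested genes. The opposite order held for Utp20 and Wdr12 alone among the 40, against 20.6% of all tested genes.

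**Figure D1:**
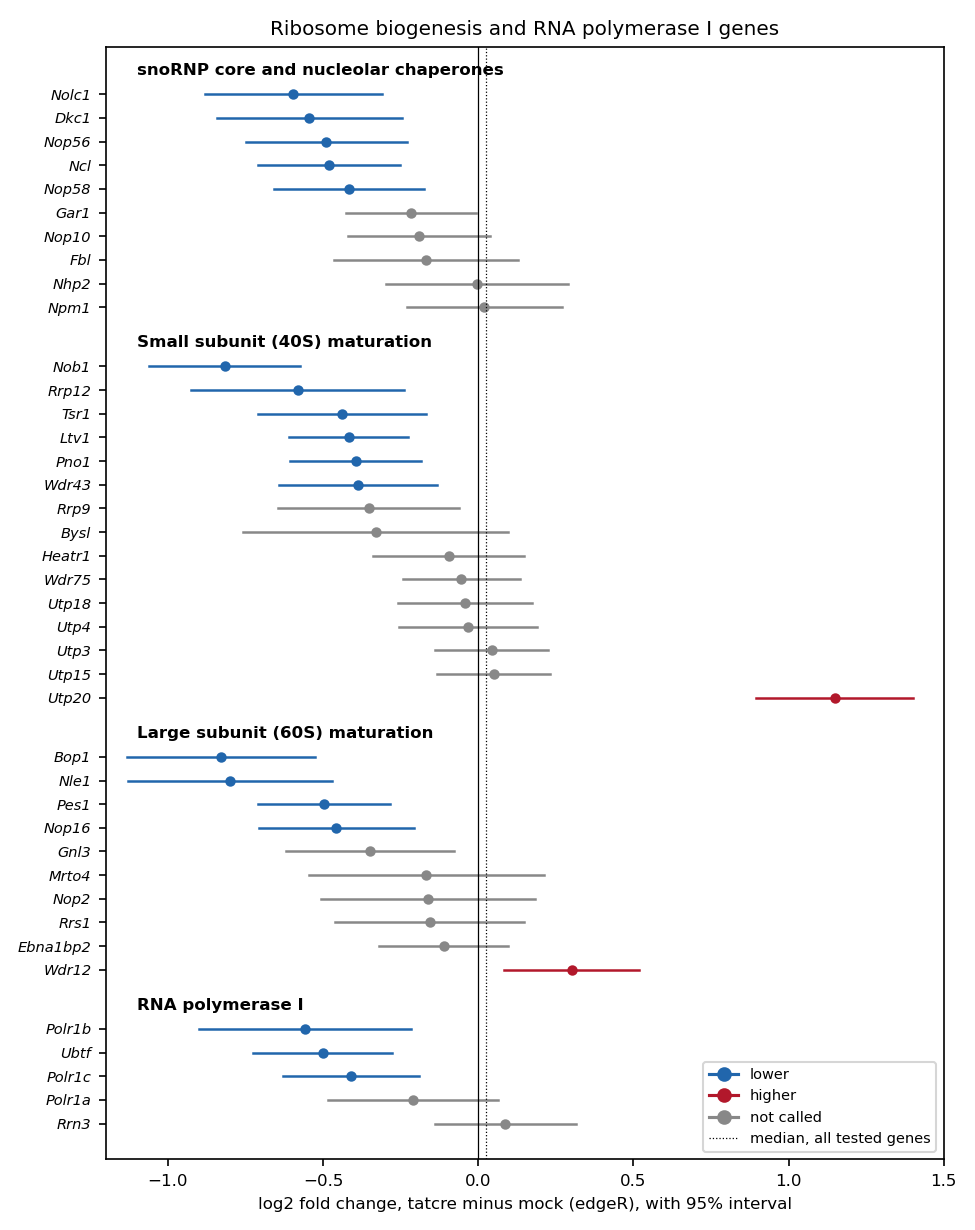
Fitted log2 fold change of tatcre against mock for each of the 40 genes (points) with its 95% interval (lines), grouped by role, from 3 libraries a group. Blue genes were called lower, red higher and grey were not called; the dotted line is the median of all tested genes, and Utp20 alone lies beyond 1.

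The libraries of a group differed from each other in these genes in a shared way. Mock 2 held the highest of the 3 mock values for 36 of the 40 genes and mock 1 the lowest for 37. Among all tested genes mock 2 was the highest mock library for 34.7% and mock 1 the lowest for 32.9%. In tatcre cells, tatcre 3 was highest for 33 and tatcre 2 lowest for 25 of the 40 (82.5% and 62.5%). Among all tested genes the shares were 36.8% and 41.5%. The mean log2 CPM over the 40 genes was 6.78, 7.16 and 6.98 in mock 1, 2 and 3, and 6.68, 6.61 and 6.85 in tatcre 1, 2 and 3. Tatcre 3 thus lay above mock 1 on this mean, so the groups overlapped on it although 17 single genes did not. Mock 2 also had the most counts of the 6 libraries (28230727) and tatcre 2 the fewest (22729187); the part of depth in this was not tested. The number called lower was 12 without mock 2 and 11 without tatcre 1, and 11 of the 18 genes were called lower under every setting tried, namely Ncl, Nop56, Nolc1, Nob1, Ltv1, Bop1, Pes1, Nop16, Nle1, Polr1c and Ubtf.

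**Figure D2:**
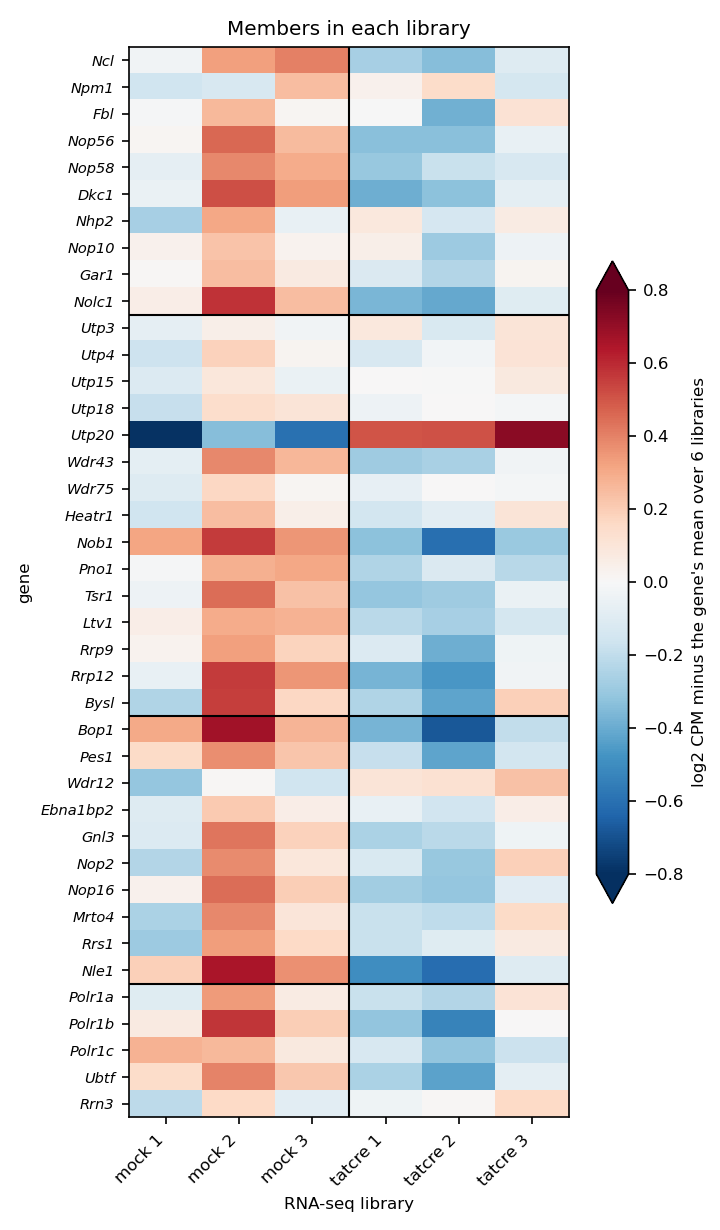
Log2 CPM of each gene (rows, in the order of the role groups, divided by horizontal lines) in each RNA-seq library (columns), relative to the gene's mean over the 6 libraries; colours saturate at 0.8. Mock 2 is the darkest red mock column, mock 1 is paler, and Utp20 has the widest range of colours, from dark blue in mock to dark red in tatcre.

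The sequences around the annotated starts of the genes with the largest falls and rises among the 35 found in the promoter table are shown because YY1, the deleted factor, binds DNA with the consensus core AANATGGC. Each line gives 100 bases before and 30 bases from the start onwards, 5′ to 3′ on the gene's strand, from RefSeq on GRCm38.p6, the assembly of the mm10 build named for the counts. Capitals mark a match to AANATGGC or to the E-box CACGTG, the canonical site of MYC and MAX, on either strand; the motifs do not overlap in any window. Nob1, Nle1 and Nolc1 stand for the falls and Utp20 and Wdr12 for the rises; for Wdr12 the 5′-most of 3 listed starts is shown.
Nob1, chr8:107425009-107425138, minus strand: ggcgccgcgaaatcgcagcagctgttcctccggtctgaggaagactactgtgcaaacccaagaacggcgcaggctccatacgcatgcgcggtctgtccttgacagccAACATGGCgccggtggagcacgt
Nle1, chr11:82908366-82908495, minus strand: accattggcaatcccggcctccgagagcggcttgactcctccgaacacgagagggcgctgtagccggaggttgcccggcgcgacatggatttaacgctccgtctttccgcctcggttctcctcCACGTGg
Nolc1, chr19:46075747-46075876, plus strand: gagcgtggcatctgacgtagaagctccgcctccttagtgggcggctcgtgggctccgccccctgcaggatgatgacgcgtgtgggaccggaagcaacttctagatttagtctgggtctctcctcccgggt
Utp20, chr10:88826785-88826914, minus strand: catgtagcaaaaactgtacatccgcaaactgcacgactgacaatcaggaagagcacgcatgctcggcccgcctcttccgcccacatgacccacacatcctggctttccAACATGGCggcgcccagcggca
Wdr12, chr1:60098471-60098600, minus strand: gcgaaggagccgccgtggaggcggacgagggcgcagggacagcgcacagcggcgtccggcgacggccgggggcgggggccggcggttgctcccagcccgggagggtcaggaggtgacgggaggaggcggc

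The YY1 core stood in the same place and on the same strand in Nob1 and Utp20, at bases 8 to 15 and 9 to 16 counted from the start, with the same letters, AACATGGC. The E-box of Utp20, at bases 38 to 43, lies past the printed stretch. Nob1 had the lowest log2 fold change of the small subunit genes and Utp20 the highest of all 40. These were the only matches among the 35 genes with a window in the table, which spans 250 bases before to 50 after the start, or 5.7%. Of 10007 tested genes with a window 10.2% held the motif: 16.9% of those called lower, 9.8% of those called higher and 8.4% of those not called. The E-box was present in 11 of the 35 genes (31.4%), against 11.8% of the 10007. By role it was found in 7 of 14 small subunit genes, 3 of 8 large subunit genes, 1 of 5 RNA polymerase I genes and none of 8 snoRNP or chaperone genes. Genes with an E-box were called lower 6 times (Wdr43, Pno1, Tsr1, Ltv1, Pes1 and Nle1), called higher once (Utp20) and not called 4 times (Utp4, Utp18, Nop2 and Rrn3). Of the 35 genes with a window 16 were called lower. Among the 10007 tested genes with a window the E-box share differed little by call. It was 12.9% of those called lower, 10.8% of those called higher and 11.7% of those not called. Myc itself fell from 277, 339 and 295 CPM in mock to 188, 157 and 193 CPM in tatcre 1, 2 and 3 (log2 fold change -0.76, SE 0.10, edgeR adjusted p = 0.000368), and Max was not called (edgeR adjusted p = 0.081). A match is a run of letters, and binding of YY1 or MYC at these starts was not analysed here.

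RNA polymerase I genes came out lower for 3 of 5, or 60%, against 16.3% of all tested genes and 22.5% of those in the same range of level. Ubtf encodes the upstream binding factor, which keeps ribosomal DNA open for transcription; it stood at 320, 381 and 335 CPM in mock 1, 2 and 3 and at 242, 215 and 274 CPM in tatcre 1, 2 and 3. Every tatcre value lay under every mock value (log2 fold change -0.50, SE 0.10, edgeR adjusted p = 0.00421). Polr1b, one of the catalytic core subunits, had 39.6, 56.0 and 43.1 CPM in mock libraries and 30.3, 26.0 and 37.8 CPM in tatcre libraries. The highest tatcre value came close to the lowest mock value, and the call (log2 fold change -0.56, SE 0.16, edgeR adjusted p = 0.0212) was lost without mock 2, tatcre 1 or tatcre 2 (edgeR adjusted p = 0.0905, 0.0625 and 0.0564). Polr1c, a subunit shared with RNA polymerase III, fell from 28.6 to 32.7 CPM in mock to 21.7 to 24.7 CPM in tatcre libraries (log2 fold change -0.41, edgeR adjusted p = 0.0109). The largest subunit, Polr1a, was not called at 129 ± 20.2 CPM in mock libraries and 111 ± 14.6 CPM in tatcre libraries (SD, n = 3 each; edgeR adjusted p = 0.233). Rrn3, the initiation factor that links the polymerase to the promoter and responds to growth signals, had 96.5, 125 and 106 CPM in mock libraries and 109, 113 and 125 CPM in tatcre libraries. Its groups overlapped (log2 fold change 0.09, 95% interval -0.14 to 0.31).

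Outside these 5, 3 of 16 further RNA polymerase I genes were called lower and none higher, a share of 18.8% that lies between the 16.3% of all tested genes and the 22.5% of those in the same range of level. They were Polr1g (24.4 ± 1.18 to 14.7 ± 2.14 CPM, edgeR adjusted p = 0.00137), a polymerase subunit; Tcof1 (253 ± 16.4 to 169 ± 23.1 CPM, edgeR adjusted p = 0.00204), the nucleolar protein treacle; and Polr2l, a small subunit common to the nuclear polymerases (3.18 to 1.43 CPM, edgeR adjusted p = 0.0117). The selectivity factor subunit Taf1b (edgeR adjusted p = 0.838) and Polr1d (edgeR adjusted p = 0.31) were not called. The median log2 fold change of the 16 was -0.20.

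Among snoRNP and chaperone genes 5 of 10 were called lower and none higher, with a median log2 fold change of -0.32. For all tested genes the shares were 16.3% lower and 10.8% higher. Ncl encodes nucleolin, a major RNA-binding protein of the nucleolus; it had 10860, 13880 and 14640 CPM in mock 1, 2 and 3 and 9193, 8725 and 10290 CPM in tatcre 1, 2 and 3. The groups did not overlap, although mock 1 was close to tatcre 3 (log2 fold change -0.48, SE 0.10, edgeR adjusted p = 0.00616). Ncl alone took 1.08 to 1.39% of all counts in mock and 0.92 to 1.05% in tatcre libraries. Nolc1, which encodes a chaperone of snoRNPs, had 323, 465 and 369 CPM in mock libraries and 241, 234 and 290 CPM in tatcre libraries, the lowest log2 fold change of this group (-0.60, SE 0.13, edgeR adjusted p = 0.00633). Npm1, the chaperone nucleophosmin, was not called at 871, 892 and 1157 CPM in mock libraries and 997, 1077 and 884 CPM in tatcre libraries (95% interval of the log2 fold change -0.23 to 0.27). Npm1 and Fbl have near-identical copies in the genome, so their counts are uncertain.

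Of the box C/D core proteins, which carry out 2′-O-methylation guided by snoRNAs, the paired scaffold genes Nop56 and Nop58 fell. Nop56 had 205, 280 and 242 CPM in mock libraries and 162, 161 and 195 CPM in tatcre libraries (log2 fold change -0.49, SE 0.12, edgeR adjusted p = 0.0107), with no overlap. Nop58 fell from 669 ± 106 to 502 ± 30.9 CPM (edgeR adjusted p = 0.0167), a call lost without mock 2 or tatcre 1 (edgeR adjusted p = 0.0701 and 0.0728). The methyltransferase gene Fbl was not called (29.9 ± 3.19 and 26.6 ± 4.64 CPM, edgeR adjusted p = 0.373). Of the box H/ACA core, which converts uridine to pseudouridine, the enzyme gene Dkc1 alone was called lower, from 317, 470 and 414 CPM to 250, 262 and 312 CPM (log2 fold change -0.54, SE 0.13, edgeR adjusted p = 0.0122). Its highest tatcre value lay just under its lowest mock value, and the call was lost without mock 2 or tatcre 1 (edgeR adjusted p = 0.0535 and 0.0526). Its partner Nhp2 had 70.6, 105 and 81.7 CPM in mock libraries and 90.2, 77.5 and 89.1 CPM in tatcre libraries, the member with the largest adjusted p (0.984 by edgeR; 95% interval -0.30 to 0.29). Gar1 and Nop10, the remaining partners, had log2 fold changes of -0.22 and -0.19 (edgeR adjusted p = 0.116 and 0.201). Of 10 snoRNP assembly factors, 2 were called lower and none higher, a share of 20% that lies near the 16.3% and 22.5% of the background: Ruvbl2, an ATPase of the assembly chaperone (92.2 ± 9.95 to 62.8 ± 6.06 CPM, edgeR adjusted p = 0.00264), and Nufip1 (58.5 ± 3.38 to 47.2 ± 1.07 CPM, edgeR adjusted p = 0.0163).

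Some of the genes carry snoRNA genes within their own spans, which the choice of members did not use. RefSeq places 19 snoRNA genes inside 7 of the 40: Nop56 (5), Nop58 (4), Wdr43 (3), Gnl3 (3), Ncl (2), Dkc1 (1) and Tsr1 (1). Of these 7 host genes 6 were called lower, and Gnl3 was not (edgeR adjusted p = 0.0572). Only Ncl and Nop56 of these hosts were called lower under every setting tried. The calls of Nop58, Dkc1, Wdr43 and Tsr1 were lost without mock 2 and without tatcre 1. Of the 33 others 12 were called lower and 2 higher. Among all tested genes 16.3% were called lower, and among those in the same range of level 22.5%. The median log2 fold change was -0.44 for the 7 and -0.19 for the 33, with no test of the difference. The mature snoRNAs were not examined, and the sources used here do not say whether their reads entered the counts of the hosts.

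Of the 15 small subunit genes 6 were called lower, 1 higher and 8 were not called, with a median log2 fold change of -0.33. Across all tested genes 16.3% were called lower and 10.8% higher, and in the same range of level 22.5% and 12.8%. The 15 genes are given by the stage at which their products act. This grouping was made after their values had been seen and has no test. Some of the further factors described below did not follow it. Among 9 genes of the small subunit processome, the particle that forms on the new precursor RNA, 1 was called lower, 1 higher and 7 were not called. Among 6 genes of later pre-40S maturation and export, 5 were called lower and none higher; the number was 3 without mock 2 and 2 without tatcre 1. The median log2 fold changes were -0.04 and -0.43. Nob1, the nuclease that makes the last cut of 18S rRNA, had 42.4, 50.3 and 43.7 CPM in mock 1, 2 and 3 and 27.2, 22.4 and 27.8 CPM in tatcre 1, 2 and 3. The tatcre libraries lay well under all mock libraries (log2 fold change -0.82, SE 0.11, edgeR adjusted p = 0.000378). Pno1, the RNA-binding partner of Nob1, had 146, 179 and 182 CPM in mock libraries and 124, 135 and 126 CPM in tatcre libraries (log2 fold change -0.39, edgeR adjusted p = 0.0112), a call lost without tatcre 1 (edgeR adjusted p = 0.0551).

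Ltv1, an assembly and export factor of the 40S subunit, fell without overlap from 132, 157 and 154 CPM to 110, 106 and 116 CPM (log2 fold change -0.42, SE 0.09, edgeR adjusted p = 0.00502). Tsr1, related to GTPases and bound to late pre-40S particles, went from 131 ± 22.2 to 97.0 ± 9.77 CPM (edgeR adjusted p = 0.0221). Its highest tatcre value, 108 CPM, nearly met its lowest mock value of 109 CPM. The export factor gene Rrp12 had 64.6, 99.1 and 85.9 CPM in mock libraries and 52.0, 48.7 and 66.0 CPM in tatcre libraries, so that its groups overlapped although it was called (log2 fold change -0.58, SE 0.16, edgeR adjusted p = 0.0178). The calls of Tsr1 and Rrp12 were lost without mock 2 (edgeR adjusted p = 0.0855 and 0.0792) and without tatcre 1 (edgeR adjusted p = 0.0823 and 0.0629). That of Tsr1 was also lost without tatcre 2 and with library size alone (edgeR adjusted p = 0.0525 and 0.0507). Bysl was not called at 39.2, 68.0 and 51.9 CPM in mock libraries and 39.2, 34.5 and 52.8 CPM in tatcre libraries, with the largest SE of the 40 genes (log2 fold change -0.33, SE 0.19, edgeR adjusted p = 0.231).

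Utp20, a long scaffold protein of the processome, was the one small subunit gene called higher. It had 86.8, 119 and 99.3 CPM in mock 1, 2 and 3 and 213, 214 and 248 CPM in tatcre 1, 2 and 3. Every tatcre library was far above every mock library (log2 fold change 1.15, SE 0.12, edgeR adjusted p = 5.4e-05), and the log2 fold change lay between 1.04 and 1.27 under all settings tried. Wdr43, of the subcomplex that first binds the precursor RNA, was called lower at 600 ± 95.2 CPM in mock libraries and 458 ± 45.3 CPM in tatcre libraries (edgeR adjusted p = 0.0294). Its groups overlapped, with tatcre 3 at 511 CPM above mock 1 at 495 CPM, and the call was lost without mock 2, mock 3, tatcre 1 or tatcre 2 (edgeR adjusted p = 0.113, 0.0529, 0.104 and 0.0697), as did library size alone (edgeR adjusted p = 0.0676). Utp4, Utp15, Wdr75 and Heatr1 belong to the same subcomplex and were not called, with log2 fold changes from -0.09 to 0.05. Neither Utp18 nor Utp3 was called, with log2 fold changes of -0.04 and 0.04. Utp4 had the largest adjusted p of the small subunit genes (0.836 by edgeR), at 152, 193 and 173 CPM in mock libraries and 155, 168 and 183 CPM in tatcre libraries. Rrp9, a protein of the U3 snoRNP, had 14.5, 17.8 and 16.0 CPM in mock libraries and 13.1, 10.8 and 13.9 CPM in tatcre libraries; its groups did not overlap, but it was not called (log2 fold change -0.35, SE 0.13, edgeR adjusted p = 0.071).

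Of 37 further small subunit factors 9 were called lower and none higher, a share of 24.3% that lies near the 22.5% of genes in the same range of level. They were led by Rrp7a (60.1 ± 3.83 to 35.2 ± 1.08 CPM, edgeR adjusted p = 9.8e-05), Ngdn (35.5 ± 4.14 to 23.9 ± 2.18 CPM, edgeR adjusted p = 0.00356) and Mphosph10, a U3 snoRNP protein (236 ± 34.2 to 170 ± 3.71 CPM, edgeR adjusted p = 0.00576). Of the genes whose products form a subcomplex with Utp18, Wdr3 was called lower (log2 fold change -0.28, edgeR adjusted p = 0.0444), and Pwp2, Tbl3, Utp6 and Wdr36 were not called, with log2 fold changes from -0.26 to 0.08. Some of the further factors did not follow the division by stage seen among the 15. The processome genes Mphosph10, Imp3 and Utp14a were called lower (edgeR adjusted p = 0.00576, 0.0127 and 0.027), whereas Riok1, a kinase of late pre-40S particles, and Tsr3, an enzyme that modifies 18S rRNA late, were not called (edgeR adjusted p = 0.875 and 0.783). These 5 were chosen after their values were seen. Other processome genes of the list, such as Pwp2, Tbl3, Utp6 and Wdr36, were not called, and the 37 were not counted by stage.

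**Figure D3:**
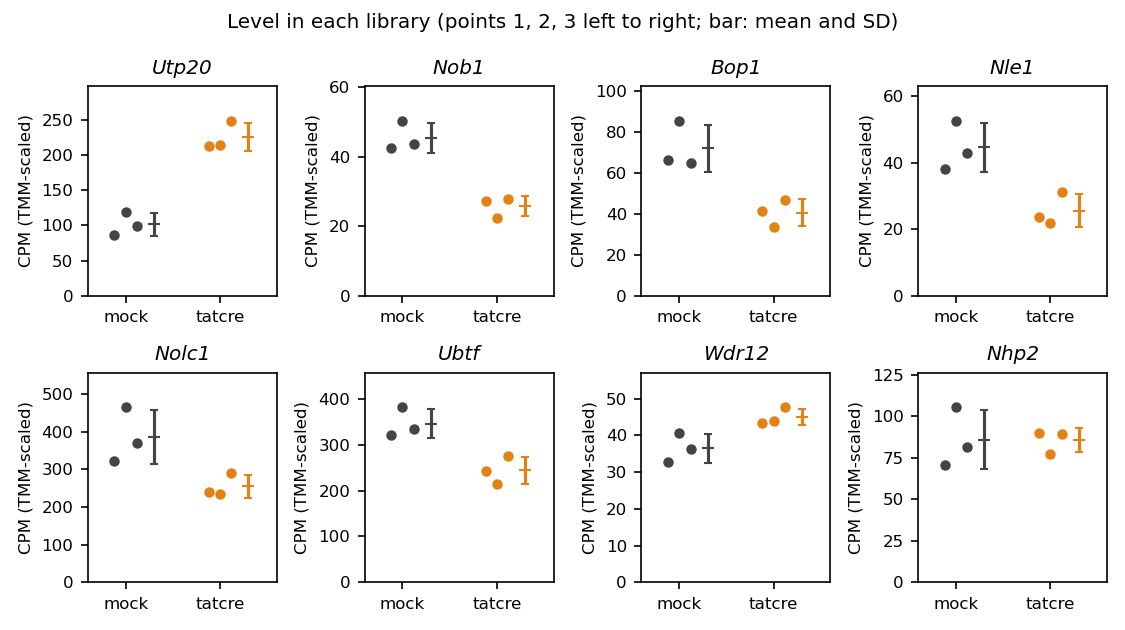
CPM (TMM-scaled) of 8 genes in each of the 3 mock and 3 tatcre libraries (points, in the order 1, 2, 3) with the mean and SD of each group (bars). Utp20 and Wdr12 are higher in all tatcre libraries, Nob1, Bop1, Nle1, Nolc1 and Ubtf are lower in all, and the groups of Nhp2 overlap.

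Large subunit genes were called lower in 4 of 10 cases and higher in 1, with a median log2 fold change of -0.26. These shares, 40% and 10%, stand beside 16.3% and 10.8% of all tested genes. The 3 proteins of the PeBoW complex, which is needed to process the 28S and 5.8S rRNA, did not move together. Bop1 had 66.3, 85.4 and 64.8 CPM in mock 1, 2 and 3 and 41.5, 33.5 and 46.8 CPM in tatcre 1, 2 and 3. It fell to 56.3% of the mock level with no overlap (log2 fold change -0.83, SE 0.14, edgeR adjusted p = 0.00136). Pes1 fell from 112, 130 and 117 CPM to 88.6, 75.1 and 90.9 CPM (log2 fold change -0.50, SE 0.10, edgeR adjusted p = 0.00335). Wdr12 rose from 32.7, 40.7 and 36.2 CPM to 43.4, 44.0 and 47.6 CPM (log2 fold change 0.30, SE 0.10, edgeR adjusted p = 0.0444). The values of Wdr12 did not overlap between groups, but its call was close to the threshold and was lost in 7 of the 13 other settings. These were the replicate block (edgeR adjusted p = 0.0728), no filter on low counts (edgeR adjusted p = 0.0583), and the leaving out of mock 1, mock 3, tatcre 1, tatcre 2 or tatcre 3 (edgeR adjusted p = 0.14, 0.116, 0.0992, 0.0555 and 0.133).

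Nle1, whose yeast counterpart Rsa4 serves in a late remodelling step of the pre-60S particle, had 38.2, 52.6 and 43.1 CPM in mock libraries and 23.7, 22.0 and 31.2 CPM in tatcre libraries. All tatcre values lay under all mock values (log2 fold change -0.80, SE 0.15, edgeR adjusted p = 0.00264). Nop16, a pre-60S factor, fell from 64.6, 86.2 and 72.2 CPM to 52.0, 51.1 and 59.4 CPM (log2 fold change -0.46, SE 0.11, edgeR adjusted p = 0.012). Gnl3, which encodes the GTPase nucleostemin, was not called at 246 ± 45.2 CPM in mock libraries and 194 ± 16.0 CPM in tatcre libraries (log2 fold change -0.35, edgeR adjusted p = 0.0572). It was called lower by DESeq2 (adjusted p = 0.0277), without the low-count filter (edgeR adjusted p = 0.000398), and without mock 1 or tatcre 3 (edgeR adjusted p = 0.0087 and 0.0456). The remaining genes were not called: the rRNA methyltransferase gene Nop2, the stalk assembly factor gene Mrto4, Rrs1, which helps bring in the 5S particle, and Ebna1bp2. Their log2 fold changes ran from -0.17 to -0.11 and their adjusted p from 0.406 to 0.494 by edgeR. Mrto4, with the largest adjusted p, had 9.85, 15.3 and 12.6 CPM in mock libraries and 10.4, 10.2 and 13.1 CPM in tatcre libraries, and overlapped between groups.

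Among 44 further large subunit factors 9 were called lower and none higher, a share of 20.5% that also lies near the background, and their median log2 fold change was -0.20. The smallest adjusted p belonged to Nop53, whose yeast counterpart docks the RNA exosome on pre-60S particles (84.3 ± 6.63 to 44.0 ± 2.81 CPM, edgeR adjusted p = 4.36e-05), Noc2l (241 ± 24.2 to 126 ± 11.4 CPM, edgeR adjusted p = 6.56e-05) and Nol9, a kinase that acts on the precursor of 28S rRNA (165 ± 15.3 to 106 ± 4.82 CPM, edgeR adjusted p = 0.000431). Rpf2, the partner of Rrs1, was called lower (edgeR adjusted p = 0.0261), and the large remodelling ATPase Mdn1 was not (edgeR adjusted p = 0.632).

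**Figure D4:**
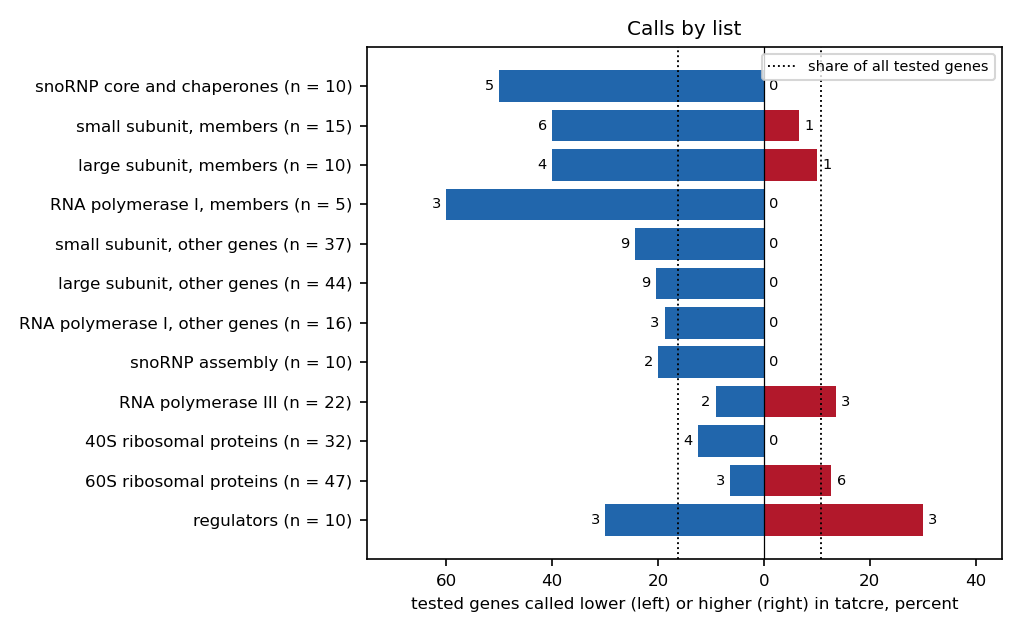
Share of tested genes called lower (blue, left) or higher (red, right) in tatcre cells in each list, with the number called beside each bar and the number tested in brackets. Dotted lines mark 16.3% lower and 10.8% higher for all tested genes; the 4 member groups reach 40 to 60% lower and the other lists 6.4 to 30%.

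Small and large subunit genes were set against each other within each library. The mean log2 CPM of the 15 small subunit genes minus that of the 10 large subunit genes was 0.36, 0.28 and 0.37 in mock 1, 2 and 3 and 0.48, 0.53 and 0.43 in tatcre 1, 2 and 3. The difference was higher in every tatcre library than in every mock library. Its absolute size has no meaning, since transcript lengths differ, and a shift of the whole library cancels in it. The small subunit mean changed by -0.18 and the large subunit mean by -0.32 on the log2 scale. Among these 15 and 10 genes the separation depended on which of the risers was included. Without Utp20 the values were 0.37, 0.28 and 0.38 in mock and 0.40, 0.44 and 0.33 in tatcre libraries, and the groups overlapped. Without Utp20 and Wdr12 they were 0.24, 0.14 and 0.25 in mock and 0.33, 0.38 and 0.26 in tatcre libraries, and the groups did not overlap. No test was made of this contrast. The medians were in the opposite order to the means, -0.33 for small and -0.26 for large subunit genes. The shares called lower were equal, 6 of 15 and 4 of 10 (40% each). With the further factors added, 15 of 52 tested small subunit genes and 13 of 54 large subunit genes were called lower, with medians of -0.11 and -0.20. The further factors alone, 37 small and 44 large, hold neither Utp20 nor Wdr12. Their small minus large difference was also higher in every tatcre library than in every mock library. Mock minus tatcre was 0.163 for the mean log2 CPM of the 37 and 0.206 for that of the 44, again without a test.

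**Figure D5:**
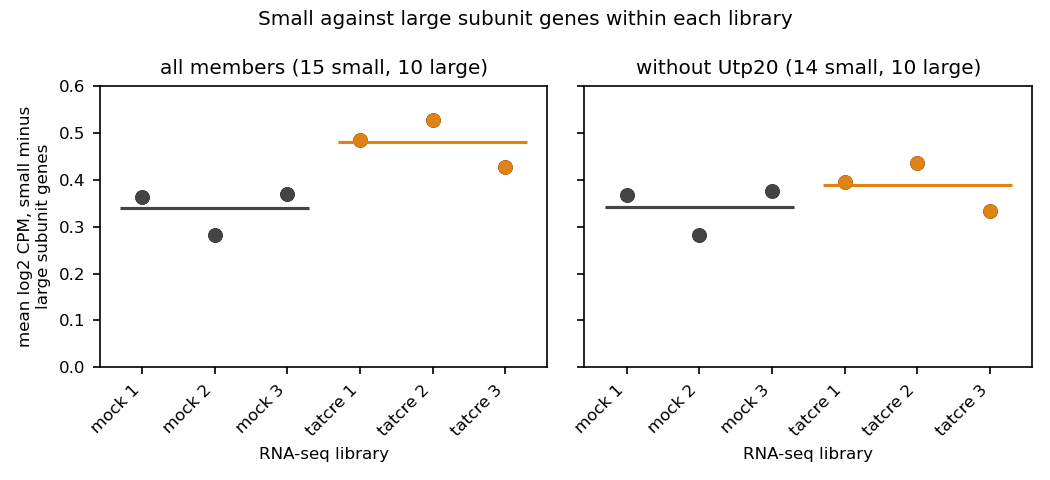
Mean log2 CPM of small subunit genes minus that of large subunit genes in each library (points) with the group means (lines), for all 25 genes and without Utp20. With Utp20 the 3 tatcre points lie above the 3 mock points; without it tatcre 3 lies below mock 1 and mock 3.

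The counts of 11 of the 40 genes could include reads of a neighbour, because their RefSeq spans overlap another gene that is not a small RNA, and the sources used here give no strand setting for the counting. They include Bop1 (Mroh1 and Scx), Wdr12 (Carf), Nop56 (Idh3b), Dkc1 (Mpp1) and Tsr1 (Srr). Utp20, Nob1, Nle1, Nolc1 and Ubtf overlap none.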

How the data were processed

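RNA-seq count files of 3 mock and 3 tatcre libraries were used; the 3 YY1 ChIP-seq peak lists were not used here, because positions in each list run past the range of GRCm38. The deposited files hold raw counts per Ensembl gene, made by the authors with Trimmomatic, TopHat2, SAMtools and HTSeq on mm10, per the submitters' processing notes, which give no versions. The library kit keeps strand, per the labels' protocols; the sources used here name no annotation, strand setting or rule for multi-mapped reads. Of 48795 gene IDs 48349 matched a symbol.

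Genes were kept with filterByExpr (minimum count 10, minimum total 15) and tested by edgeR 4.0.16 (TMM, quasi-likelihood test, R 4.3.3), with Benjamini-Hochberg adjustment over all 15546 genes and a threshold of 0.05. The SE is the absolute log2 fold change divided by the square root of F, and 95% intervals use it. Library depth was 22729187 to 28230727 counts, and each of the 40 genes had at least 244 counts in every library. The biological coefficient of variation was 0.129. The script was tested on simulated data. No replicate pair agreed within sampling noise (chi-square per degree of freedom at least 8.07).

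The genes and lists were chosen with earlier results of these data known, so their share of calls is a description. Given in full were, per role group, the 3 called members of lowest adjusted p, called risers and the member of highest adjusted p; others were added after their values were seen. Of other lists, the 3 genes with the lowest adjusted p among those called were named. One B cell marker is not reported here. The alternatives were other scalings, DESeq2 1.42.0, other filters, a replicate block and leaving out each library.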

Additional observations from a re-analysis of the deposited data

How the results depend on the processing

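Of the 20 called genes, 11 of 18 falls and the rise of Utp20 held under all 13 alternatives, and none of the 20 changed sign. Some genes that were not called did change sign, such as Utp4. Its log2 fold change was -0.03 as reported and 0.07 with library size alone. The calls of Nop58, Dkc1, Wdr43, Pno1, Tsr1, Rrp12, Polr1b and Wdr12 were lost under at least 1, as given beside each. Rrp9 and Bysl were called lower without the low-count filter (edgeR adjusted p = 0.0402 and 0.00477), and Rrs1 without mock 1 (edgeR adjusted p = 0.0457). Members called lower numbered 16 to 21 under other scalings, filters, DESeq2 and the replicate block, and 11 to 20 when 1 library was left out; those called higher numbered 1 without the low-count filter and 1 with the replicate block, and 1 to 2 with 1 library left out. Of the small subunit genes 2 to 6 and of the large subunit genes 4 to 6 were called lower with 1 library left out. The small subunit median then ran from -0.43 to -0.12, the large from -0.40 to -0.13 and that of all 40 from -0.41 to -0.19. Over all genes, 998 to 1681 were then called higher, 1960 to 2391 lower and 2958 to 3963 in all. Library size alone gave 2608 genes higher and 1895 lower: falls made up 60.2% of calls as reported, 42.1% with library size alone and 48.5% with upper-quartile factors. It moved the median change over all genes from 0.02 to 0.13 (log2) and that of the 40 to -0.23, so that the 40 lay 0.36 lower than all genes either way. With 1 library left out, the median of the 40 minus that of all genes ran from -0.43 (without mock 1) to -0.22 (without mock 2). Same-numbered libraries showed correlations of deviations of 0.06, -0.03 and 0.23, which does not establish pairing; with the replicate block 3421 genes were called (4215 without), 18 of the 40 lower and 1 higher, and 19 of the 20 member calls were shared. Each of the 40 genes had at least 244 counts in every library, and the part of depth in the results was not tested.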

Other observations

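RNA polymerase III, which makes 5S rRNA and tRNAs, and the ribosomal proteins themselves were examined as further lists. Of 22 RNA polymerase III genes 2 were called lower and 3 higher (edgeR), with a median log2 fold change of -0.04. These shares, 9.1% lower and 13.6% higher, stand beside 16.3% and 10.8% of all tested genes. Bdp1, part of the initiation factor TFIIIB, fell from 171 ± 12.2 to 115 ± 5.77 CPM (edgeR adjusted p = 0.000531) and Gtf3c2 from 42.2 to 33.7 CPM (edgeR adjusted p = 0.0259). Polr3f, a polymerase subunit, rose from 67.5 ± 10.7 to 86.4 ± 3.06 CPM (edgeR adjusted p = 0.0335). Maf1, a repressor of RNA polymerase III, rose from 20.4 to 25.1 CPM (edgeR adjusted p = 0.0464), and Gtf3c4 from 33.3 to 42.1 CPM (edgeR adjusted p = 0.0471).

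Of 32 genes for 40S ribosomal proteins 4 were called lower and none higher, and of 47 for 60S proteins 3 were called lower and 6 higher. The shares called lower, 12.5% and 6.4%, are under the 16.3% of all tested genes, and the 12.8% of 60S genes called higher is near the 10.8% of all tested genes. These genes have many near-identical copies, so their counts are uncertain, and levels as low as a mean log2 CPM of 0.19 occur among them. The called 60S genes with the smallest adjusted p all rose: Rpl15 from 41.1 ± 3.89 to 73.8 ± 8.56 CPM, Rpl31 from 19.7 ± 1.10 to 31.1 ± 2.23 CPM and Rpl5, a partner of 5S rRNA, from 51.3 ± 4.68 to 84.8 ± 10.8 CPM (edgeR adjusted p = 0.000244, 0.000734 and 0.000747). Of the 40S genes Rps13 fell from 11.1 ± 1.12 to 6.30 ± 0.583 CPM (edgeR adjusted p = 0.00158), Rps28 from 4.42 to 2.47 CPM and Rps15a from 94.3 to 78.8 CPM. Among 10 growth regulators 3 were called lower, Myc, the rDNA silencing factor gene Baz2a and Rps6kb1, and 3 higher, Tsc1, Rptor and Akt1. These shares, 30% lower and 30% higher of a short list, stand beside 16.3% and 10.8% of all tested genes. Mtor was not called (edgeR adjusted p = 0.981).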
